A study of Mus musculus with 40 samples.

Results

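The transcripts described here are those of the ubiquitin-proteasome system whose gene symbol starts with Psma, Psmb, Psmc, Psmd, Psme, Ube2 or Usp. The rule used symbols and no measured value, but it was chosen with earlier results of these data known. It found 96 transcripts of 90 genes among the 6831 transcripts of 5866 genes in the table. They were 7 alpha and 7 beta subunits of the 20S core particle, 6 ATPase and 12 non-ATPase subunits of the 19S regulatory particle, 2 proteasome activators, 22 ubiquitin-conjugating (E2) enzymes and 34 ubiquitin-specific proteases (Usp), the last with 40 transcripts. All came from the cortex of male C57BL/6 mice aged 12 weeks. The saline sham group received saline and handling with anaesthesia but no impact. The saline HF-HI group received saline and high-frequency head impact (HF-HI), and RNA was taken 24 h after the last session. The corresponding memantine sham and memantine HF-HI groups were injected 1 h before each session with memantine, which blocks NMDA receptors, in place of saline. Each group had 10 libraries, which the labels number and give no batch for. The labels do not say in words that each library is 1 mouse, so p-values measure the spread between libraries.

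Proteins are marked for destruction by ubiquitin, a small protein that an E1 enzyme activates, an E2 enzyme carries and an E3 ligase attaches. The 26S proteasome unfolds marked proteins with the ATPase ring of its 19S particle and cuts them inside the barrel of its 20S core, while deubiquitinases such as the Usp family remove ubiquitin again. In neurons the system is known for the turnover of synaptic proteins, glutamate receptors and scaffolds included.

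Read totals recovered from the deposited values ran from 13322404 to 17529644 per library. The members had mean normalised counts from 564 to 13951, in a table whose lowest transcript mean was 549. The annotation has 140 protein-coding genes with these prefixes, against 90 genes in the table, and those outside it are not described. Of the marker lists, the table held 6 of 6 neuronal, 5 of 5 excitatory, 5 of 6 inhibitory, 6 of 6 astrocyte, 6 of 6 oligodendrocyte, 5 of 7 microglial, 2 of 5 endothelial and 0 of 5 blood markers, a makeup of brain tissue that does not by itself mark cortex. The summed count of 13 striatal markers (of 18 listed) was 56561 ± 7066 (mean ± SD, n = 10 per group throughout) in saline sham against 49466 ± 4245 in saline HF-HI, and 56329 ± 6773 against 54628 ± 6445 in the memantine arms. The saline HF-HI mean was the lowest, the ranges overlapped, and values with these markers as a covariate are given where they end a call of a member. In whole cortex, fewer cells of a type and less RNA per cell cannot be told apart.

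Levels between genes were compared as normalised counts per kb of transcript, in saline sham. The 20S subunits, which assemble in equal numbers into each core, lay within a 3.69-fold range, from 393 ± 23.8 counts per kb for Psma2 to 1452 ± 98.1 for Psmb6, around a median of 860. Of the catalytic subunits, Psmb6 (caspase-like activity) and Psmb7 (trypsin-like activity, 1305 ± 87.3 counts per kb) stood above Psmb5 (chymotrypsin-like activity, 864 ± 66.4). Levels of the immunoproteasome subunits Psmb8, Psmb9 and Psmb10 and of the activators Psme1 and Psme2 were not analysed here. The 6 ATPases ran from 613 ± 36.9 counts per kb for Psmc6 to 1501 ± 70.5 for Psmc5.

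The non-ATPase subunits spanned a wider range. Psmd2, a scaffold at which shuttle factors dock, had 1252 ± 47.1 counts per kb. Psmd14, the deubiquitinase of the 19S lid, had 852 ± 51.0, and the ubiquitin receptor Psmd4 had 697 ± 51.6. Psmd5, an assembly chaperone of the 19S base that is not part of the finished particle, was the lowest at 163 ± 11.4. The activators Psme3 (399 ± 22.1) and Psme4 (395 ± 20.6) differed by less than their spread.

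Among the E2 enzymes, Ube2r2, the partner of cullin ligases, was the lowest at 212 ± 16.4 counts per kb, and the median was 513. Ube2w, which modifies the amino terminus of its substrates, stood high at 1932 ± 558. Its annotated transcript is only 543 nt long, which raises a value per kb. Ube2b (1126 ± 40.3), an enzyme of DNA damage tolerance, and the widely used Ube2d3 (823 ± 34.5) came next.

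The Usp transcripts were longer (median 4726 nt, against 1163 nt for the 20S subunits) and lower per kb, with a median of 272 counts per kb and an 11.4-fold range. Usp9x, which acts on many substrates in neurons, had 1184 ± 53.1 counts per kb and Usp7, a regulator of Mdm2 and p53, had 1167 ± 35.6, a difference within their spread. Usp5, which takes apart free ubiquitin chains, had 917 ± 68.6. Usp46 (495 ± 22.7) and its close relative Usp12 (345 ± 16.1), both linked to glutamate receptor turnover, stood above the median, and the mitochondrial Usp30 (144 ± 9.52) stood below it. The lowest was NM_130879, a transcript of Usp48, at 104 ± 45.7.

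**Figure D1:**
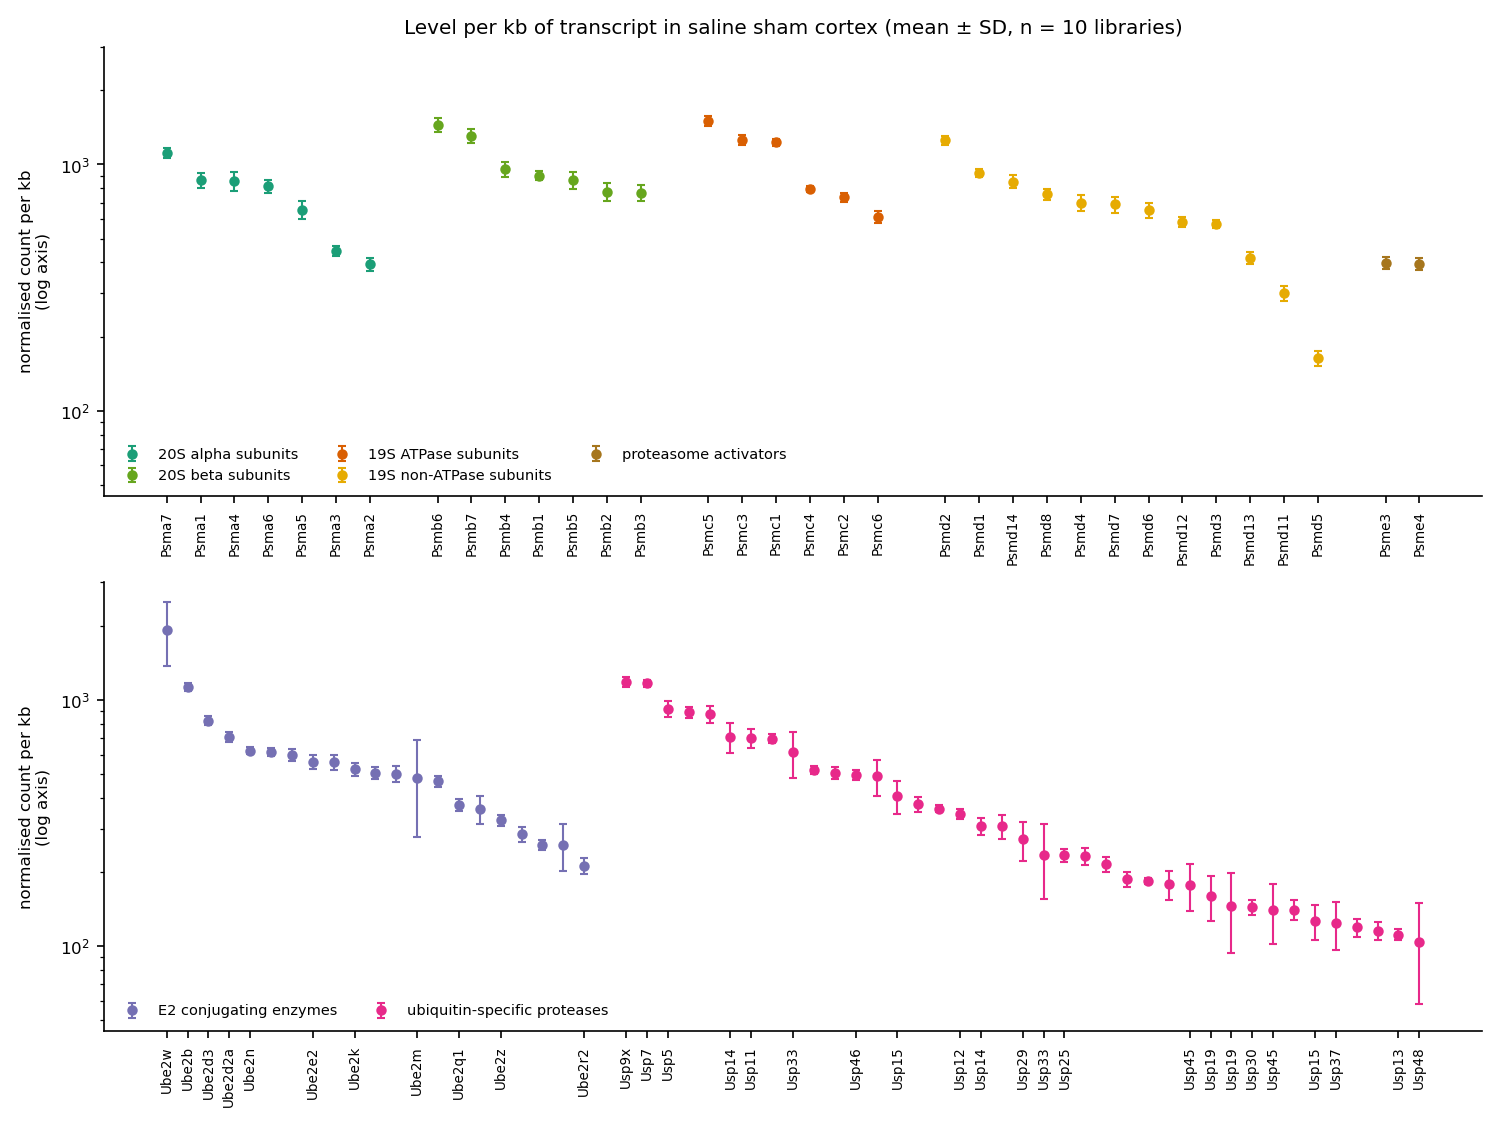
Normalised count per kb of transcript (log axis) in the 10 saline sham libraries, as mean ± SD for the proteasome transcripts, 21 E2 transcripts and the Usp transcripts with a known length, ordered by level within each class (E2 and Usp transcripts that the text names carry labels). The 20S subunits lie between 393 and 1452 counts per kb, the plotted E2 enzymes between 212 and 1932 and the Usp transcripts between 104 and 1184.

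Promoter windows from RefSeq (build GRCm38.p6, the 250 bases before to the 50 after a transcription start) were given for 71 of the 90 genes. Psmc3, Psmb1, Psmb2 and Psmb7 were among the genes without a window. The windows were searched on both strands for the antioxidant response element core TGACNNNGC, bound by the proteasome gene regulator Nfe2l1, for CCAAT, and for the ETS site CCGGAAG. A window can hold several motifs. The ETS letters were in a window of 9 of 15 genes of 19S subunits and of 1 of 11 genes of 20S subunits, beside 9.93% of all 27025 genes with a window. The same letters were in 4 of 16 E2 genes, 7 of 27 Usp genes and 2 of 2 activator genes. CCAAT was in 6 of 11 genes of 20S subunits and 4 of 15 of 19S subunits, beside 41.1% of all genes. The antioxidant core was in 2 of 11 and 2 of 15, beside 3781 of all 27025 genes. For each motif, the window of the proteasome gene with the highest level per kb among those that hold it is shown, with the match to that motif alone in capitals. The window of Psmc5, whose counts are described below and which holds none of the 3, is shown too. The Psmc1 window, shown for CCAAT, also holds an ETS match on the other strand, left in lower case.
Psmb6 (chr11:70525107-70525406, plus strand; antioxidant core): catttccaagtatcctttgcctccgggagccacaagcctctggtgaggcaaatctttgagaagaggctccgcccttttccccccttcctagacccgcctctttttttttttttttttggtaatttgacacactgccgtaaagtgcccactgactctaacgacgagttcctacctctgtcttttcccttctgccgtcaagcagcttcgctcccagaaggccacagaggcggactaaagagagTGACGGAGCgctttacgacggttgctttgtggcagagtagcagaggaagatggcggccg
Psmc1 (chr12:100109952-100110251, plus strand; CCAAT): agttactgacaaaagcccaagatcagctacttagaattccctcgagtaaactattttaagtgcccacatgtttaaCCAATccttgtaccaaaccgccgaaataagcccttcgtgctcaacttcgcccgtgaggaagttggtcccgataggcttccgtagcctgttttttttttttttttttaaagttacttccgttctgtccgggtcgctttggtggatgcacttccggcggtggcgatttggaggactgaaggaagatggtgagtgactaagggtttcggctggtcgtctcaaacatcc
Psmd2 (chr16:20651402-20651701, plus strand; ETS site, here on the other strand): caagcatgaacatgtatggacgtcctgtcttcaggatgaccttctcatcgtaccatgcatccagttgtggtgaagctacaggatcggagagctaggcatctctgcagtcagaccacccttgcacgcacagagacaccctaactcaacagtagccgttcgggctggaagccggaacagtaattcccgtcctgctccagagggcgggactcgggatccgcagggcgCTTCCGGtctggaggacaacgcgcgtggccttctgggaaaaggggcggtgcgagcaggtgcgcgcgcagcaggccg
Psmc5 (chr11:106255935-106256234, plus strand): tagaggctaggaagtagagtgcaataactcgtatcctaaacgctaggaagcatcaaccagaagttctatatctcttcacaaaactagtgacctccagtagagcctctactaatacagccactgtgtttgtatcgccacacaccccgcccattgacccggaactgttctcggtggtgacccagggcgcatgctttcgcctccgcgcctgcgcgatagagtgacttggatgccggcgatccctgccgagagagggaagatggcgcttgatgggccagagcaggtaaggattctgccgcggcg
These letters are a description of the windows and say nothing of whether a factor was bound in these mice.

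Summed over each class, the transcript pool of these members was close to flat across the 4 groups. The 14 subunits of the 20S core summed to 14550 ± 695 normalised counts in saline sham and 14642 ± 533 after impact, and to 14060 ± 602 and 14438 ± 698 in the memantine arms. The memantine sham mean was the lowest of the 4, within 1 SD of the saline sham mean. The 6 ATPases summed to 9813 ± 266, 10051 ± 242, 9798 ± 315 and 9764 ± 356 in the same order, with the highest mean in saline HF-HI. The 12 non-ATPase subunits summed to 16710 ± 546, 16659 ± 410, 16361 ± 394 and 16510 ± 584. The E2 enzymes stayed between 33681 and 33987 on average, and the Usp transcripts between 91023 and 91147. In every class the libraries of the 4 groups overlapped. These sums were not tested.

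**Figure D2:**
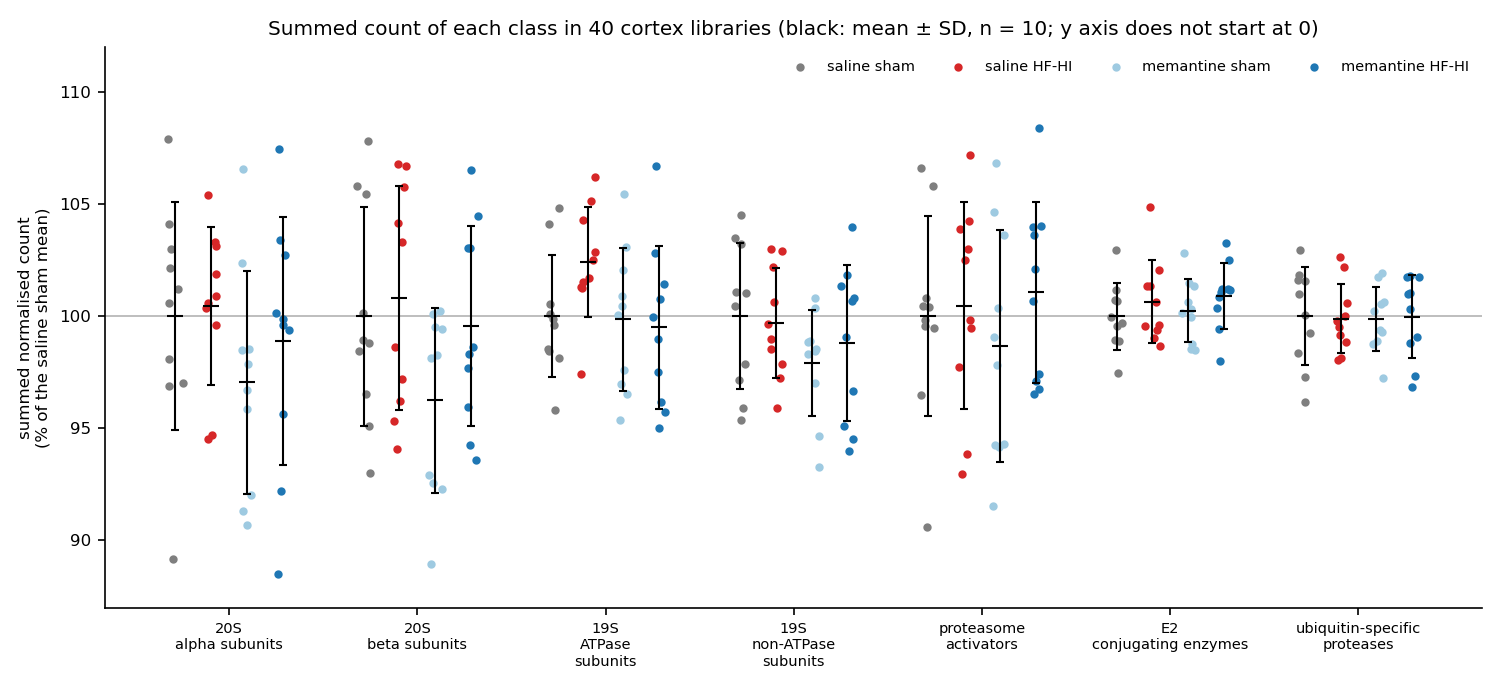
Summed normalised count of each class per library, as a percentage of the mean of the saline sham libraries (axis not from 0), with 1 point per library and mean ± SD in black (n = 10). The groups overlap in every class, and the ATPase mean is highest in saline HF-HI (10051 summed counts).

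The first comparison asked what HF-HI changed under saline. At the study's criterion of an unadjusted p-value under 0.05, 6 of 96 transcripts (6.25%) were called, beside 9.53% of all transcripts tested, 5 of them higher (4.58% of all) and 1 lower (4.95% of all). No member had a Benjamini-Hochberg adjusted p-value under 0.1 in limma, beside 0.205% of all transcripts, and the smallest adjusted value was 0.202. The transcripts that were higher were the 19S ATPases Psmc5 and Psmc3, the 20S subunit Psma4, Ube2e2 and Usp25, and the lower one was Usp29. The share of members called was not above the background. With the striatal covariate, 4 of 96 members were called, beside 376 of all 6831 transcripts (5.50%, with 0 at an adjusted p-value under 0.1 in limma). The median member changed by 0.02%, and all transcripts by 0.014%.

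Psmc5, an ATPase of the 19S ring (chromosome 11, 106256185 to 106263112), had a lowest, median and highest normalised count of 1839, 1970 and 2109 in saline sham and of 1981, 2048 and 2179 in saline HF-HI. All 10 impacted libraries lay above the sham mean, and the ranges overlapped. The ratio of counts was 1.05 (95% interval 1.01 to 1.09) with p = 0.00609 in limma and p = 0.0209 in a two-sided permutation test.

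Psmc3, another ATPase of the ring (chromosome 2, 91054016 to 91059438), ran over 1898, 2039 and 2252 in saline sham and over 1964, 2179 and 2227 in saline HF-HI. Here 9 of 10 impacted libraries lay above the sham mean, while the highest library of all was a sham. The ratio was 1.05 (1.01 to 1.09), with limma p = 0.0275 and permutation p = 0.0240. With the striatal markers as a covariate, limma p was 0.0647, and without saline sham replicate 6 or 10 the call was lost, with p at most 0.0672. All 6 ATPases had ratios above 1 (5 of 6 a positive sign with weighted libraries), from 1.0003 to 1.05, with a median of 1.01. Of all 6831 transcripts, 3412 had a positive sign. The 12 non-ATPase subunits of the same particle had 4 positive and 8 negative signs. Counts of the ATPases move together between libraries (median r 0.255), so the 6 signs are not 6 separate observations.

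Psma4, an alpha subunit of the 20S core (chromosome 9, 54950781 to 54958034), had 795, 1012 and 1137 counts in saline sham and 954, 1101 and 1210 in saline HF-HI. The lowest sham library stood apart from the rest, and 9 of 10 impacted libraries were above the sham mean. The ratio was 1.09 (1.02 to 1.18), with limma p = 0.0168, and p was 0.0543 without saline sham replicate 5. It was the only one of the 14 subunits of the 20S core that was called, and 8 of the 14 had a negative sign.

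Ube2e2 (chromosome 14, 18573563 to 18894284) is an E2 enzyme of a small family with Ube2e1 and Ube2e3, and it had the smallest p-value of the members. Its lowest, median and highest counts were 782, 841 and 970 in saline sham and 881, 932 and 1024 in saline HF-HI. Every impacted library lay above the sham mean, and the 3 highest sham libraries lay inside the impacted range. The ratio was 1.10 (1.04 to 1.16), with limma p = 0.00133, adjusted p = 0.202 (Benjamini-Hochberg) and permutation p = 0.00228. It remained called when any 1 library was left out, with p at most 0.00396. No other of the 22 E2 transcripts was called, and 11 had a positive sign.

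Usp25 (chromosome 16, 77013684 to 77116783), a deubiquitinase related to Usp28, had 1005, 1125 and 1226 counts in saline sham and 1116, 1202 and 1239 in saline HF-HI. Of the impacted libraries 9 of 10 were above the sham mean, and the lowest stood just under it. The ratio was 1.07 (1.02 to 1.12), with limma p = 0.0116 and 0.0590 with the striatal covariate.

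Usp29 (chromosome 7, 6730559 to 6967220), an imprinted gene next to Peg3, was the single member that was lower, with 1535, 1928 and 2707 counts in saline sham and 1427, 1713 and 2316 in saline HF-HI. The groups overlapped over most of their range, and a pair of sham libraries stood far above the others. The ratio was 0.855 (0.752 to 0.972), with limma p = 0.0194, 0.0657 with the striatal covariate and 0.0562 at most without saline sham replicate 6 or 10.

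**Figure D3:**
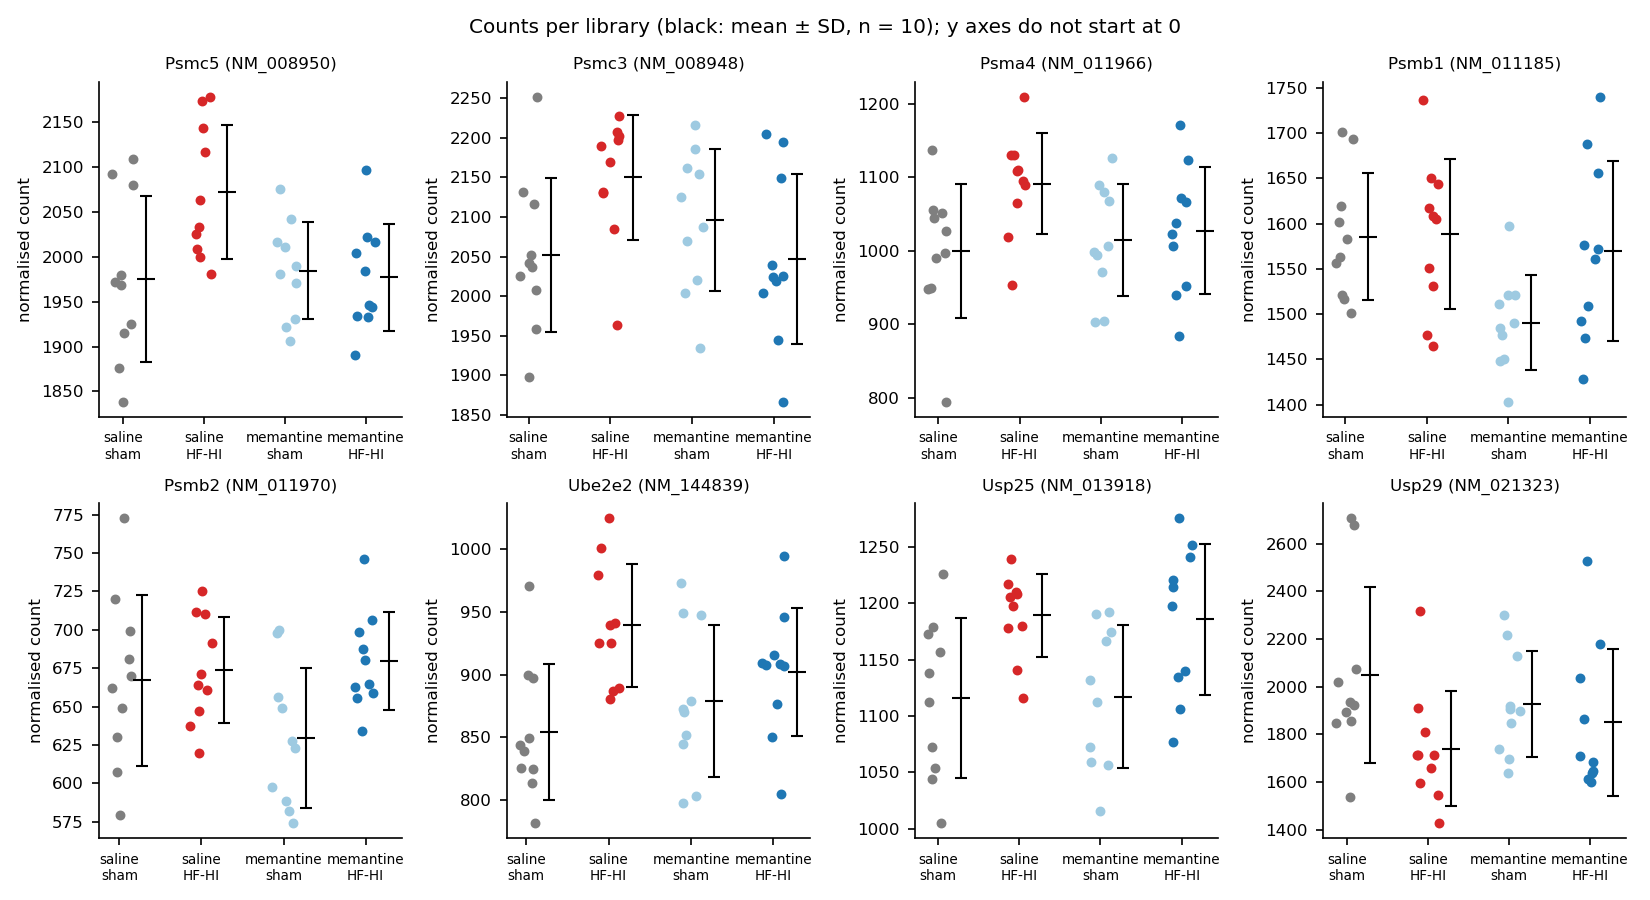
Normalised counts per library of 8 transcripts with an unadjusted p-value under 0.05 in at least 1 comparison (axes not from 0), with mean ± SD in black (n = 10 per group). Psmc5 and Psmc3 have their highest group mean in saline HF-HI (2072 and 2150), Psmb1 and Psmb2 their lowest in memantine sham (1490 and 630), and all groups overlap.

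The second comparison asked the same of HF-HI under memantine. It called 4 of 96 members (4.17%), all higher, beside 4.61% of all transcripts, with 2.39% of all transcripts higher and 2.23% lower. The balance over all transcripts moved with the scaling, from 163 of 315 calls higher to 245 of 368 after median centring and 209 of 336 after quantile normalisation, while the same 4 members were called. None had an adjusted p-value under 0.1 in limma (Benjamini-Hochberg), beside 0.0146% of all transcripts. Psmb2, a structural beta subunit of the 20S core (chromosome 4, 126677637 to 126709715), had 574, 625 and 700 counts in memantine sham and 634, 673 and 746 in memantine HF-HI, and all 10 impacted libraries were above the sham mean. Its ratio was 1.08 (1.02 to 1.15), with limma p = 0.0148 and permutation p = 0.0109.

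Psmb1, another structural beta subunit (chromosome 17, 15475721 to 15498276), had 1403, 1487 and 1597 counts in memantine sham and 1428, 1566 and 1740 in memantine HF-HI. The upper part of the impacted range lay above every sham, and the lower part overlapped with them. The ratio was 1.05 (1.00 to 1.10), with limma p = 0.0312, and each of 5 libraries ended the call when left out (memantine sham replicates 5 and 10 and memantine HF-HI replicates 1, 4 and 8), with p up to 0.0857. Ube2q1, an E2 enzyme of the Ube2q family, had a ratio of 1.05 (1.01 to 1.09, limma p = 0.0247), which did not pass without memantine sham replicate 10 or memantine HF-HI replicate 6. Usp25 ran over 1016, 1122 and 1192 in memantine sham and over 1077, 1206 and 1275 in memantine HF-HI, with a ratio of 1.06 (1.01 to 1.12, limma p = 0.0188). It was the one member called in both impact comparisons. These compare different libraries, but a single model of all 40 libraries gave the spread used in both tests. Their p-values are therefore not independent. Usp25 was also called in each comparison when only the groups compared were fitted. Its call under saline did not pass with the striatal covariate, as given above. Whether such an overlap is more than that among all transcripts was not tested.

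All 14 subunits of the 20S core had a positive sign under memantine (13 of 14 with weighted libraries), with a median change of 1.74%, beside 3381 of 6831 transcripts with a positive sign and a median of -0.039%. Their counts move together between libraries, as described with their correlations, so the 14 signs are not 14 separate observations. The 18 subunits of the 19S particle had 11 positive signs and a median change of 0.665%, with 0 called.

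Memantine against saline in the sham groups uses the same memantine sham libraries, so the values of these comparisons are not independent. It called 6 of 96 members (6.25%), beside 7.51% of all transcripts, with 1 higher (3.67% of all) and 5 lower (3.84% of all), and 0 at an adjusted p-value under 0.1 in limma (0.0293% of all). Of the 5 lower transcripts 3 were 20S subunits. Psmb1 had 1501, 1573 and 1701 counts in saline sham, and 9 of 10 memantine sham libraries lay below the saline mean, for a ratio of 0.940 (0.899 to 0.984), limma p = 0.00993 and permutation p = 0.00264.

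The alpha subunit Psma6 (chromosome 12, 55384222 to 55418459) had 756, 853 and 953 counts in saline sham and 746, 803 and 853 in memantine sham, a ratio of 0.949 (0.908 to 0.992) with limma p = 0.0199. The alpha subunit Psma7 (chromosome 2, 180036367 to 180042464) had 940, 1015 and 1105 counts against 859, 968 and 1022, a ratio of 0.941 (0.892 to 0.992) with limma p = 0.0254. In both, 9 of 10 memantine libraries lay below the saline mean and the ranges overlapped. Psma6 lost its call without saline sham replicate 10, and Psma7 without replicate 4 of saline sham or replicate 4 or 7 of memantine sham. Over the 14 subunits of the 20S core, 12 had a negative sign and the median change was -3.43%, beside -0.0375% for all transcripts. Over the 18 subunits of the 19S particle, 14 were negative with a median change of -1.82% and 0 called.

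The other calls in the sham groups were Ube2d2a, an E2 that works with many ligases (ratio 0.958, 0.920 to 0.998, limma p = 0.0401), Ube2q1 (0.959, 0.920 to 1.00, limma p = 0.0473) and, upwards, NM_133247 of Usp33 (1.16, 1.01 to 1.33, limma p = 0.0340). Ube2q1 did not pass with the striatal covariate (limma p = 0.0502) or in a permutation test (p = 0.0781), nor did Usp33 (p = 0.0659). Each of the 3 calls was lost when any of several libraries was left out, from 7 for Usp33 to 13 for Ube2q1.

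The next comparison asked whether the drug changed the impacted cortex, with memantine HF-HI set against saline HF-HI. It called 3 of 96 members (3.12%), beside 3.91% of all transcripts, with 1 higher (1.52% of all) and 2 lower (2.39% of all), and 0 at an adjusted p-value under 0.1 in limma (0% of all). The comparison shares the saline HF-HI libraries with the first. Both lower transcripts were ATPases of the 19S ring. Psmc5 had 1890, 1966 and 2096 counts in memantine HF-HI, and 9 of 10 of these libraries lay below the saline HF-HI mean, with a ratio of 0.954 (0.923 to 0.987), limma p = 0.00736 and permutation p = 0.00656. It passed whichever library was left out (p at most 0.0185).

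Psmc3 had 1867, 2025 and 2205 counts in memantine HF-HI, with 8 of 10 libraries below the saline HF-HI mean. Its ratio was 0.952 (0.913 to 0.992), with limma p = 0.0211, and p was 0.0576 without memantine HF-HI replicate 10. The other 4 ATPases were not called, and the median of the 6 was -2.47%, beside 0.0114% for all transcripts. Usp13, a deubiquitinase of the same family as Usp5, was higher with a ratio of 1.05 (1.00 to 1.10, limma p = 0.0348, permutation p = 0.0452), and 9 libraries each ended its call when left out.

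The interaction of impact and drug, the difference between the 2 impact effects, called 3 of 96 members (3.12%), beside 3.73% of all transcripts, with 1 higher (1.92% of all) and 2 lower (1.82% of all), and 0 at an adjusted p-value under 0.1 in limma (0% of all). The lower ones were Psmc3, whose HF-HI ratio under memantine was 0.931 times that under saline (0.878 to 0.988, limma p = 0.0198), and Psmc5 (0.949 times, 0.905 to 0.995, limma p = 0.0330). Both had been called in 2 comparisons that use the same saline HF-HI libraries, so these values are not independent. In memantine sham, Psmc3 had 1934, 2106 and 2216 counts and Psmc5 had 1906, 1985 and 2075. For both, the saline HF-HI libraries had the highest group mean. The means of Psmc5 were 2072 there and 1976, 1985 and 1977 in saline sham, memantine sham and memantine HF-HI. Those of Psmc3 were 2150 and, in the same order, 2052, 2096 and 2047, with memantine sham between saline HF-HI and the other 2. Psmc3 remained called whichever library was left out, and 7 libraries each ended the call of Psmc5, with p up to 0.0604. Psmc5 also missed the threshold after median centring (limma p = 0.0515) and quantile normalisation (limma p = 0.0605). Usp11, which acts in DNA repair, differed the other way (1.08 times, 1.00 to 1.17, limma p = 0.0453). Leaving out any of 25 of the 40 libraries ended its call, as did the striatal covariate (limma p = 0.103).

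Most of the members were not called in any comparison: 81 of 96 transcripts, of 76 genes. How far a change could have gone is bounded by the intervals, transcript by transcript. The 95% interval reached, at the median, 6.18% to either side of the ratio over all 96 members, called or not, and 4.31% over the ATPases. Some intervals were far wider. The outermost bounds over the members were 0.698 and 1.66 for HF-HI under saline and 0.635 and 1.72 under memantine. Psmb5, the subunit that proteasome inhibitor drugs target, had ratios for HF-HI against sham of 0.999 (0.933 to 1.07) under saline and 1.01 (0.948 to 1.09) under memantine. Psmd14 had 1.02 (0.974 to 1.08) and 1.04 (0.986 to 1.09), Psme4 had 1.01 (0.963 to 1.07) and 1.03 (0.978 to 1.08), and Ube2n, which builds chains used in signalling, had 0.984 (0.954 to 1.01) and 0.997 (0.967 to 1.03). For Usp7 the ratios were 1.03 (0.994 to 1.06) and 1.01 (0.980 to 1.05), and for Usp9x 1.00 (0.967 to 1.04) and 1.02 (0.981 to 1.06). Changes of 10% in these genes lie outside all of the intervals of Psmd14, Psme4, Ube2n, Usp7 and Usp9x given here.

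The proteasome subunits moved together from library to library. With the group means removed, the median Pearson's r over the 40 libraries was 0.459 for the 21 pairs of alpha subunits and 0.396 for the 21 pairs of beta subunits, and all of these pairs were positive. It was 0.255 for the ATPases, 0.179 for the non-ATPases and 0.317 between 20S and 19S subunits. It was 0.0195 for the E2 enzymes, 0.0127 for the Usp transcripts and -0.0009 for all pairs of transcripts. These are descriptions, and the points share library depth and scaling.

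The closest pairs were Psma2 with Psmd6 (r = 0.742), Psma2 with Psma4 (0.732) and Psma2 with Psmb7 (0.717). Psmc3 and Psmc5 had r = 0.445. The activators and 1 lid subunit went against the rest, with median r values to the other proteasome transcripts of -0.278 for Psme3 (an activator of the nucleus), -0.185 for Psme4 (an activator tied to chromatin) and -0.254 for Psmd11, a lid subunit. Psma4 and Psme3 had the lowest r of all pairs, -0.566.

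**Figure D4:**
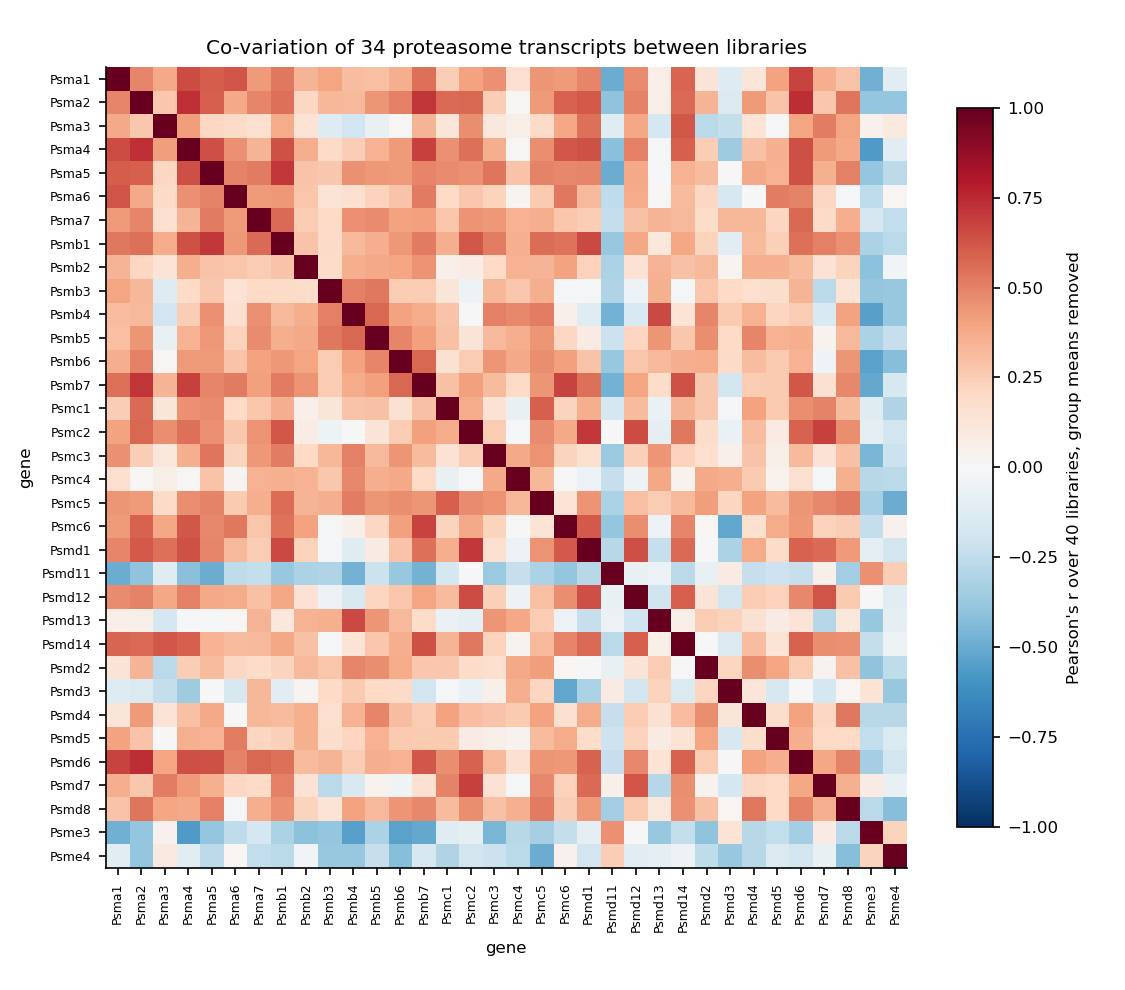
Pearson's r over the 40 libraries, with group means removed, for each pair of the 34 proteasome transcripts in order of symbol, from blue (-1) to red (1). The block of Psma and Psmb subunits is red throughout most of its pairs (median r of the alpha pairs 0.459), while the rows of Psmd11, Psme3 and Psme4 are mostly blue.

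For 6 Usp genes the table had 2 transcripts each, and for most of them the share of each varied far more than their sum. Usp45 summed to 1888 ± 97.5 counts in saline sham, a coefficient of variation (CV) of 5.16%, while NM_001290425 took from 21.7 to 55.6% of that sum in single libraries. Usp48 summed to 2611 ± 128 (CV 4.89%), with 11.6 to 40.4% from NM_130879. The correlation between the transcripts of a gene was -0.926 for Usp45, -0.925 for Usp48, -0.791 for Usp14, which acts on the proteasome itself, -0.790 for Usp15 and -0.540 for Usp33 (40 libraries, group means removed). Reads that fit more than 1 transcript were divided between them by the counting program, and its part in these splits was not tested. The sum over both transcripts of Usp33 kept its difference between the sham groups (3468 ± 445 against 3804 ± 254, limma p = 0.0304, adjusted p = 0.581).

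Usp19, whose main protein sits in the membrane of the endoplasmic reticulum, did not follow this pattern. Its transcripts had r = 0.414, and their sum varied with a CV of 25.1% in saline sham (1376 ± 345). No member symbol passed an adjusted p-value under 0.1 in limma when transcripts were summed.

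**Figure D5:**
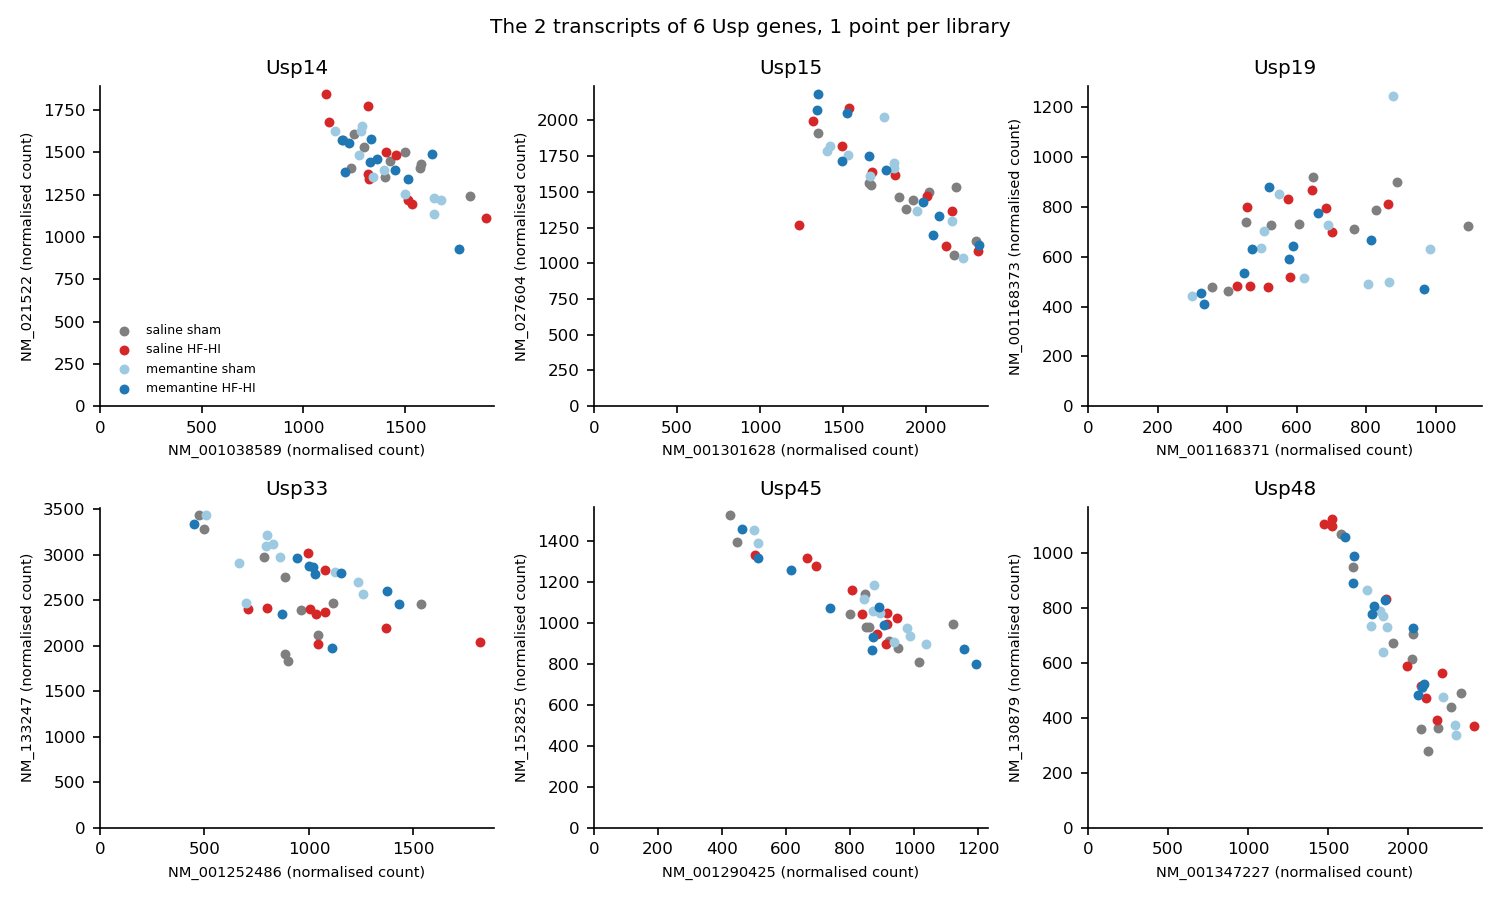
Normalised counts of the 2 transcripts of each of 6 Usp genes, 1 point per library, coloured by group, with both axes from 0. In Usp45 and Usp48 the points fall along a descending line (r = -0.926 and -0.925), while in Usp19 both transcripts rise together (r = 0.414).

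A few members varied widely between libraries of 1 group. Ube2m, the E2 for Nedd8, which activates cullin ligases, had counts from 382 to 617 in 19 libraries and from 843 to 1143 in 21, with none in between. The lower range held 6 sham and 5 HF-HI libraries of the saline arm and 5 sham and 3 HF-HI libraries of the memantine arm, so every group held both. Its CV over the 40 libraries was 36.5%, and no comparison of it passed the test. The following were chosen after their values were seen. Usp37, a deubiquitinase of the cell cycle, had 292 counts in saline HF-HI replicate 9 and 347 in saline sham replicate 5, with 814 to 1116 in the other 38. Ube2w had 225 counts in saline sham replicate 8 and 882 to 1446 in the other 39.

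The other parts of the pathway were read from lists, whose calls were not read with the striatal covariate. The 7 transcripts of E1 enzymes gave 0 calls in all 5 comparisons, beside 3.73 to 9.53% of all transcripts. Of 15 transcripts for proteasome assembly, regulators and shuttles, 1 was called for HF-HI under saline (6.67%, beside 9.53% of all transcripts). It was Ddi2, the protease that releases active Nfe2l1, at a ratio of 0.788 (0.677 to 0.917, limma p = 0.00232, adjusted p = 0.250). Each other comparison gave 0 calls for this list, beside 3.73 to 7.51% of all transcripts. Of 22 transcripts of deubiquitinases outside the Usp family, 3 were called for HF-HI under saline (13.6%, beside 9.53% of all transcripts), 2 higher and 1 lower. The lower one was Uchl1, an abundant neuronal enzyme (0.945, 0.898 to 0.995, limma p = 0.0325). For HF-HI under memantine 0 were called, beside 4.61% of all transcripts.

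Of 35 transcripts of HECT and RBR ligases, 5 were called for HF-HI under saline (14.3%, beside 9.53% of all transcripts), all higher. Herc3 had a ratio of 1.09 (1.04 to 1.14, limma p = 0.000706, adjusted p = 0.165), and the others were Arih2, Herc1, Hecw1 and Hectd3, at ratios from 1.04 to 1.07. Under memantine 3 were called (8.57%, beside 4.61%), of which 2 were transcripts of Nedd4l that differed in opposite directions (0.799 and 1.35). The 31 transcripts of cullin ligase parts gave 2 calls (6.45%) in each impact comparison, beside 9.53% of all transcripts under saline and 4.61% under memantine. They were Cops8 (0.938) and Klhl2 (0.936) under saline, and Cops4 (1.07) and Cul5 (1.32) under memantine. The immediate early genes, which neuronal activity induces, were read for comparison, with 8 of 18 listed symbols found. This list was chosen with earlier results of these data known, so its shares are descriptions and no test of the list. For HF-HI under saline 6 of 9 transcripts were higher, beside 4.58% of all transcripts. Junb had a ratio of 1.65, and 2 of the 6 were transcripts of Arc. The smallest adjusted p-value of the list in limma was 0.145 (Benjamini-Hochberg). Under memantine 0 were called, beside 4.61% of all transcripts. The interaction passed at unadjusted p in limma for 2 of the 9, beside 3.73% of all transcripts.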

How the data were processed

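RNA from 40 cortex samples was sequenced by the authors as stranded, ribosome-depleted, paired-end libraries. The study's methods name STAR (mm10), eXpress counts per RefSeq transcript and DESeq2, while the submitters' processing notes name HISAT2 and StringTie. The series text gives 4 samples per group and the labels give 10, and the labels were followed. The deposited values are log2-scale, made by the authors with the variance-stabilising transformation of DESeq2. They were inverted to normalised counts with the value that stands for 0, 10.4. In each library 100% of the values under 5000 (92.4% of all values) were whole multiples of 1 step, within 0.05 of a whole number. Symbols and positions came from RefSeq (GRCm38.p6), with a symbol for 99.9% of transcripts, and lengths from GENCODE for 95 of 96 members.

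All 6831 transcripts were fitted on the deposited scale by limma (version 3.58.1, R 4.3.3; linear model, then eBayes with a trend), with 1 term per group and 5 two-sided contrasts. Called means an unadjusted p-value under 0.05, and Benjamini-Hochberg adjusted values over all transcripts were read at 0.1. Ratios and 95% intervals came from the same model on log2(normalised count + 1). Permutation tests used 100000 resamples. The procedure was tested on simulated data with changes larger than those of the called members. That test therefore does not show its power for changes as small as theirs. The members and gene lists were chosen with earlier results of these data known. Named members were those called (at most 6 per direction and contrast), the highest and lowest per kb in each class, symbols with transcripts that disagree, and a list of 51 genes of known role, of which 39 were in the table. Some items are not reported here. Reads shared with near-identical copies, such as processed pseudogenes of subunit and E2 genes or the relatives of Ube2d2a, make single values uncertain. Alternatives were other pseudocounts (50), a count minimum of 1000, centring, quantile normalisation, a replicate block, only the groups compared, a striatal covariate, library weights, another variance prior, sums by symbol and leaving out each library.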

Additional observations from a re-analysis of the deposited data

Results flagged for a closer look

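The highest or lowest library of each group was compared with its nearest neighbour for 61 named transcripts, in 244 groups of 10 libraries. The gap, as a share of the range of the group, passed the 95% limit of Dixon's test in 11 groups, and chance alone gives such a gap in about 1 of 20 groups. The libraries that stood high were memantine sham replicate 8 for NM_001168373 of Usp19 (1244 normalised counts, next 851), memantine HF-HI replicate 6 for Usp12 (1650), saline HF-HI replicate 7 for Psmc6 (1530), saline sham replicate 8 and saline HF-HI replicate 10 for Ube2z (1455 and 1401), and saline sham replicate 9 for Psmd11 (990.3). The libraries that stood low were memantine HF-HI replicate 5 for Psma6 (731), saline HF-HI replicate 9 and memantine sham replicate 5 for Ube2k (1974 and 1681), memantine HF-HI replicate 7 for NM_021522 of Usp14 (931) and saline HF-HI replicate 7 for Psmd2 (3063).

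The effect of impact differed between the saline and memantine arms at an unadjusted p-value under 0.05 in limma for Psmc3 (p = 0.0198), Psmc5 (p = 0.0330) and Usp11 (p = 0.0453), with Benjamini-Hochberg adjusted p-values of 0.999 for all 3.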

How the results depend on the processing

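No named call changed direction under any alternative. Over the 22 calls and the settings other than leaving out a library, 220 values stayed on their side of the threshold and 14 did not. Leaving out each library in turn ended a call 88 times in 880, and 8 of the 22 calls were never ended. The count of members called moved by over 1.5 times for memantine against saline in HF-HI with weighted libraries (5, against 3), and for the same drug comparison in sham with a count minimum of 1000 (3, against 6, with fewer transcripts tested). Leaving out 1 library gave 5 to 8 calls for HF-HI under saline, 2 to 6 for HF-HI under memantine (2 without memantine sham replicate 10), 2 to 5 for memantine in HF-HI (5 without saline HF-HI replicate 1, 2 or 4 or memantine HF-HI replicate 4), 3 to 7 for memantine in sham (3 without memantine sham replicate 7) and 1 to 6 for the interaction (6 without saline sham replicate 7, 1 without saline HF-HI replicate 6). The cause was not tested.

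With the striatal covariate, 4 members were called for HF-HI under saline, 3 of them among the original 6, and p for Usp11 in the interaction was 0.103. Psmc5 in the interaction had p = 0.0515 after centring and 0.0605 after quantile normalisation. Same-numbered libraries did not deviate together (median r from -0.0264 to 0.0101 between groups, with 1 of 10 libraries closest to its own number in each pair of groups). The replicate block gave 6, 4, 3, 6 and 3 calls in the order above, and p = 0.0552 for Ube2d2a in sham. The median member had a 95% interval of 6.18% to either side of its ratio. The median counting CV of a class, taken from the square root of the mean count alone, was 2.48 to 3.13%. The median CV between saline sham libraries was 4.45 to 8.27%. The part that dividing reads between transcripts has in this spread was not tested.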
